A study of Mus musculus with 6 samples.

Results

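Genes that carried 8 or more FXR peaks in WT mouse liver were described as a group. They were selected on the number of rows in the WT peak table that name the gene, so a high peak count is how they were chosen and is not a finding. The rule selected 246 of the 9025 genes with a WT peak (2.73%), and 2524 of 20040 WT peaks (12.6%). Peaks per gene ranged from 8 to 21 with a median of 9. Just inside the threshold, 72 genes had exactly 8 peaks, and just outside it 122 genes had exactly 7. Of the 246 genes, 210 are protein-coding, 33 are noncoding RNA genes, 2 are pseudogenes and 1 is a snoRNA gene.

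FXR chromatin immunoprecipitation sequencing (ChIP-seq) was done on livers of male C57BL/6 mice of 2 genotypes. The floxed controls are Bcl6 fl/fl, written WT here, and the hepatocyte knockouts are Alb-cre, Bcl6 fl/fl, written LKO, so both carry the floxed allele and only LKO carries Cre. The Albumin promoter drives Cre in hepatocytes, so other liver cells keep Bcl6. Each genotype had 2 ChIP libraries and 1 input library, 6 in all. No drug treatment or age was given in the labels, and it was not stated whether the libraries of a genotype came from separate animals.

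FXR, encoded by Nr1h4, is the nuclear receptor for bile acids. It binds DNA with RXR, classically at an inverted repeat of the AGGTCA hexamer with a 1 base spacer, called IR1, and in hepatocytes it restrains bile acid synthesis and acts on lipid and glucose genes. BCL6 is a zinc finger repressor that recruits corepressors such as BCOR. A gene with many peaks is one to which nearest-start assignment gave many sites. That assignment does not show that each site acts on that gene.

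Rreb1 had the most peaks and Nfia the second most, so the mm10 plus-strand sequence of the strongest peak of each is shown first. Rreb1 encodes a zinc finger transcription factor that binds RAS-responsive elements, and Nfia a nuclear factor I protein. Both peaks are intronic. Capitals mark an IR1 match with 2 mismatches among the 12 scored bases. The Nfia peak held no match that close.
Rreb1, chr13:37857668-37857878: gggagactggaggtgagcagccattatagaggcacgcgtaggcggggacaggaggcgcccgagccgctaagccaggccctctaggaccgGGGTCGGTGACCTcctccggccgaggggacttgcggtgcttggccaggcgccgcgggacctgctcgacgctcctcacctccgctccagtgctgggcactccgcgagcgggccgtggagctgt
Nfia, chr4:97880183-97880393: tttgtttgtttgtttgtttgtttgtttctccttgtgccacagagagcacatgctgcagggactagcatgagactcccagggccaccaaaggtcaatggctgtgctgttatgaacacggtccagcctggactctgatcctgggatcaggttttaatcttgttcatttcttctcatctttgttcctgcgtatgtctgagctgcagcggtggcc
The Rreb1 peak lies in intron 1 of 9, 30380 bp from the nearest Rreb1 start. Its deposited log2 level was 7.03 and 7.61 in the 2 WT ChIP libraries and 1.87 in WT input, against 7.22 and 7.23 in the LKO ChIP libraries and 3.94 in LKO input. The Nfia peak lies in intron 2 of 10 and had log2 levels of 6.36 and 6.95 in WT, 1.16 in WT input, 6.49 and 6.09 in LKO and 0.18 in LKO input. Every ChIP value was above both inputs at these sites. The deposited levels were taken to be regularised log2 values, although the headers name no transform, and differences and tag estimates rest on that reading. Levels of the 2 genotypes were normalised separately, so the WT and LKO values stand side by side without a test.

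The closest IR1 matches among the members' peaks are shown next, since they are the sites at which the sequence is nearest to the receptor's known element. Exact matches, 7 in all, came first. They are listed from the strongest to the weakest peak in WT, each with the repeat in capitals and 10 flanking bases on either side.
Nos1ap, chr1:170516416-170516448: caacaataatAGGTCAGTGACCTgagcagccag
Mir7661, chr6:108459064-108459096: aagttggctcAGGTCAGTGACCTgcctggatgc
D630024D03Rik, chr11:31828730-31828762: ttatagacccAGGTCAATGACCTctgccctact
Stard13, chr5:151105287-151105319: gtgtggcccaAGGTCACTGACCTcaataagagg
Vps13d, chr4:145132947-145132979: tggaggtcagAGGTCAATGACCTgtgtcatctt
Rbm47, chr5:66070354-66070386: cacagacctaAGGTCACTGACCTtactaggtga
Gm30173, chr3:52554704-52554736: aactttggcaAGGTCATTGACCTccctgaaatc
All 7 peaks were overlapped by an LKO peak, against 77.2% of all member peaks with an IR1 of at most 2 mismatches. The Nos1ap peak was the strongest of them, at log2 levels of 7.02 and 7.68 in WT and 6.75 and 6.93 in LKO. The Gm30173 peak was the weakest, at 4.44 and 4.38 in WT and 5.08 and 5.26 in LKO. An exact repeat therefore stood under both strong and weak peaks. A single mismatch was present at 49 more peaks, and 5 of the strongest of these are given with the same marking.
4921525O09Rik, chr13:52009961-52009993: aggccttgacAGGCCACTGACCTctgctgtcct
Suclg2, chr6:95716682-95716714: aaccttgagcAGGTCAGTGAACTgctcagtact
Gm46545, chr16:24090127-24090159: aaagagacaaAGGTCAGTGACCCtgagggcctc
Ptprg, chr14:11866006-11866038: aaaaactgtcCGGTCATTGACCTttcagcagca
Esrrg, chr1:187964622-187964654: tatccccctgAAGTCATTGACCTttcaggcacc
These 5 peaks, picked for strength, were overlapped by an LKO peak. So were 92.7% of all member peaks in the strongest quartile of WT peaks, with or without IR1. The 4921525O09Rik peak had WT log2 levels of 7.61 and 8.43 and LKO levels of 7.04 and 7.01. The Esrrg site was the only 1 of the 9 Esrrg peaks that LKO kept, at 6.23 and 7.21 in WT and 6.88 and 6.71 in LKO.

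The members' peaks were spread over wide stretches. The span from the first to the last peak centre was 23.8 to 812 kb with a median of 142 kb (interquartile range 85.2 to 229.8), under 50 kb in 23 genes and over 300 kb in 42. Rreb1 had 21 peaks over 305 kb (chr13:37598285-37903281), 16 of them intergenic. Nfia had 19 peaks over 495 kb (chr4:97509675-98005335), 17 of them within the gene. Rbm47, an RNA-binding protein gene, packed 18 peaks into 118 kb, whereas Foxp1, a forkhead factor gene, had 16 over 628 kb. The map of peak positions shows these and other members.

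**Figure D1:**
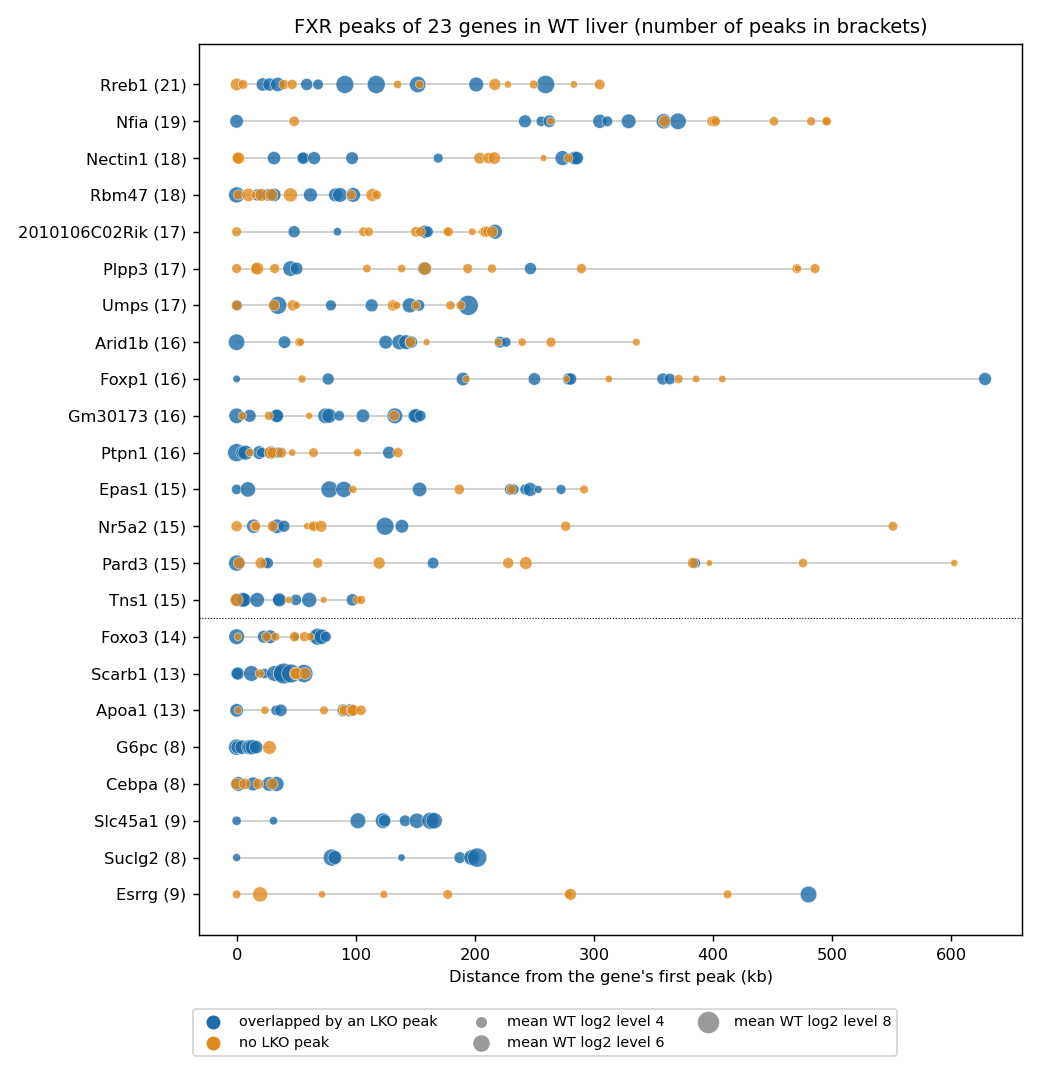
Positions of WT FXR peaks, as distance in kb from the first peak of the gene, for the 15 genes with the most peaks (above the dotted line) and 8 others described in the text. Each point is 1 peak, its area grows with the mean of the 2 WT log2 levels, and colour shows whether an LKO peak overlapped it; all 9 Slc45a1 and all 8 Suclg2 peaks were overlapped, but only 1 of 9 Esrrg peaks.

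Within a gene, neighbouring peaks were spaced much as in genes with fewer peaks. The 2278 gaps between neighbouring peaks of a member had a median of 8.44 kb (interquartile range 3.20 to 21.9), a minimum of 418 bp and a maximum of 473 kb. The median gap was 9.30 kb in genes with 2 to 3 peaks and 8.09 kb in genes with 4 to 7, on either side of the members' value, and the differences were not tested. Among the members it was 7.40 kb in genes with 8 to 9 peaks, 10.3 kb in those with 10 to 12 and 8.72 kb in those with 13 or more. Over all 20019 neighbouring WT peaks, of the same gene or not, it was 23.5 kb. Peak-rich is used for the members here, since their gaps alone did not separate them from other genes with several peaks.

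Peaks at most 12.5 kb from the next are called a run here. The longest run of a member held a median of 4 peaks, and 27 genes had a run of 8 or more, while in 27 genes no run exceeded 2. All peaks formed 1 run in 11 genes. Scarb1, the HDL receptor gene, had the longest, with 13 peaks in 57.6 kb (chr5:125273785-125331553). Ptpn1, which encodes the phosphatase PTP1B, had 12 peaks within 46.7 kb, and Mgll, encoding monoacylglycerol lipase, 11 within 45.3 kb. Mgll falls outside the naming rule and was picked after its values were seen.

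Median gaps of single genes ran from 1.56 to 52.8 kb. Mn1, a transcriptional coregulator gene, had the shortest at 1.56 kb for 9 peaks. The next shortest were those of 4930506A18Rik at 2.25 kb, Nampt (the NAD salvage enzyme) at 2.55 kb, Slc16a12 at 2.56 kb and Fbxo15 at 2.60 kb. The longest were 52.8 kb for Esrrg, an orphan nuclear receptor gene, 41.2 kb for Dynlrb2, a dynein light chain gene, and 39.9 kb for Thrb, a thyroid hormone receptor gene. Other nuclear receptor genes among the members had shorter ones, such as 5.76 kb for Ppara and 8.41 kb for Rxra. None of the 8 Thrb peaks lay within 12.5 kb of the next.

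The room around the members' starts was larger than that of genes with fewer peaks. The territory of a gene is the number of bases for which its curated RefSeq transcription start is the nearest. Peaks were also assigned by nearest start, so choosing genes on their peak count favours large territories. The members' territories had a median of 188 kb (interquartile range 118.7 to 342.9), against 100.1 kb for genes with 4 to 7 peaks, 64.1 kb for genes with 2 to 3 and 44.9 kb for genes with 1. For 82 members (33.3%) the territory was in the top decile of all genes with a peak, above 275.6 kb. Across all 9013 genes with a territory, Spearman's rho between territory and peak count was 0.29, a description over genes that share 1 pooled peak set.

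Peak counts per base were nevertheless high. All 246 members exceeded the genome's 0.735 peaks per 100 kb, with a range of 0.886 to 31.5 and a median of 5.54. Pooled over their 65.7 Mb, which is 2.41% of the genome, the rate was 3.84 per 100 kb, or 5.22 times the genome's. This ratio and each comparison with the genome's rate contain the count the genes were chosen by. The genome's rate also covers territories of genes with no peak. The median rate per gene was 4.80 in genes with 4 to 7 peaks, 3.58 in genes with 2 to 3 and 2.23 in genes with 1. A530013C23Rik was the most densely covered, with 14 peaks in a 44.5 kb territory, and G6pc, which encodes the glucose-6-phosphatase catalytic subunit, had 18.4 per 100 kb. At the low end, Tenm3 had 10 peaks in a territory of 1129 kb. A530013C23Rik and Tenm3 were named after their values were seen.

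**Figure D2:**
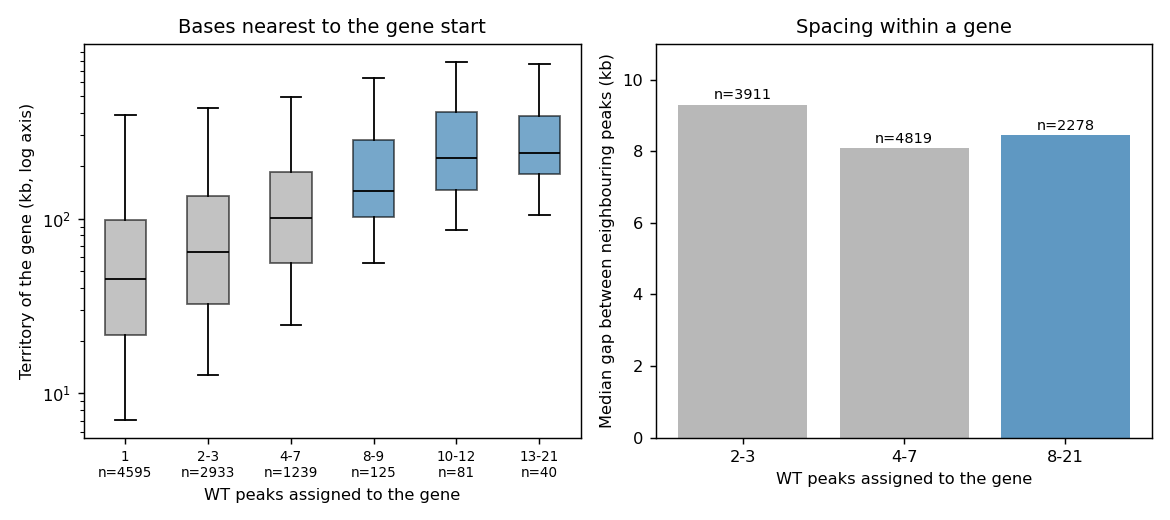
Left, territory of each gene in kb on a log axis by the number of WT peaks assigned to it, with boxes from the lower to the upper quartile, the median as a line and whiskers at the 5th and 95th percentiles. Right, median gap in kb between neighbouring peaks of the same gene, with the number of gaps above each bar and all members in 1 bar. Territories were larger in classes with more peaks, while the median gaps on the right were 8.09 to 9.30 kb. With the members split as on the left, their median gaps were 7.40 kb (8 to 9 peaks), 10.3 kb (10 to 12) and 8.72 kb (13 or more).

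Most member peaks were distal. In all, 1312 of 2524 (52.0%) lay in introns and 1063 (42.1%) were intergenic, against 46.5% and 35.3% of all WT peaks. In the promoter class were 92 (3.65%, 95% Wilson interval 2.98 to 4.45) by the deposited annotation, against 11.4% of all WT peaks. The median distance from the start was 35.8 kb against 13.9 kb. This share is per peak, and genes chosen for many peaks have more distal ones in the denominator. Per gene, a promoter peak was assigned to 85 of the 246 members, against 2206 of all 9025 genes.

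The assigned gene was not always the gene that housed the peaks. Of the 2524 peaks, 1262 lay within the assigned gene, 1063 between genes and 199 (7.88%) within another gene, and 25 members had no peak in their own gene. The noncoding gene 2010106C02Rik had 16 of its 17 peaks inside Prkce, which encodes protein kinase C epsilon. Apoa1, the main HDL apolipoprotein gene, had 12 of 13 inside the salt-inducible kinase gene Sik3, and Umps, the last enzyme of pyrimidine synthesis, had 11 of 17 inside Kalrn. All 11 peaks of Mir7661 were in Itpr1, an IP3 receptor gene. The names of such members mark a position, not a shown target.

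Among the genes with the most peaks, the settings of the peaks differed widely. Tns1, a focal adhesion gene, had all 15 peaks within its own gene over 105 kb, and Pard3, a cell polarity gene, had 14 of 15 within its gene over 602 kb. Ptpn1 and Nectin1 had most of theirs between genes, 14 of 16 and 14 of 18. Plpp3, a lipid phosphate phosphatase gene, had 11 of 17 intergenic over 486 kb. Arid1b, a SWI/SNF subunit gene, had 11 of 16 within its gene, and Epas1, which encodes HIF-2 alpha, had 8 of 15 within its gene and 5 inside Prkce. Kept counts in these genes went from 4 of 17 in Plpp3 and 5 of 15 in Pard3 to 11 of 15 in Epas1 and 12 of 16 in Gm30173.

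Neighbouring members could form longer arrays. A member's peaks were directly followed or preceded by those of another member in 47 of the 246 genes (19.1%). No such share was taken over genes with fewer peaks, so whether this is frequent cannot be said. On chromosome 17, Prkce housed 21 peaks that were split between 2010106C02Rik and Epas1. This locus was singled out after its values were seen.

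A WT peak is called kept when an LKO peak overlapped it by 1 bp or more, and lost when none did. Lost means that no LKO peak was called, not that the level was 0. The members kept 1273 of 2524 peaks, 50.4% (48.5 to 52.4), close to the 49.5% over all WT peaks. The share was 52.6% in genes with exactly 8 peaks and 53.0% in genes with exactly 7, and 48.9% (44.9 to 52.9) in the 40 genes with 13 or more. Retention in the members therefore was not set apart from that of the whole peak set. The intervals cover counting over peaks only, and each genotype gave 1 pooled peak set, so no replicate spread stands behind them.

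Per gene, the median share kept was 50% (interquartile range 37.5 to 62.5), and 144 genes kept at least as many peaks as they lost. Slc45a1, a sugar transporter gene, kept all 9 and Suclg2, a succinyl-CoA ligase subunit gene, all 8. The next were 4930542M03Rik with 8 of 9, Tsku with 8 of 9 and G6pc with 7 of 8. At the other end, Gramd3 kept 0 of 12, and Thrb, Esrrg and Mup20 kept 1 each, of 8, 9 and 9. Ank3, the ankyrin G gene, kept 2 of 11. Mup20 belongs to a family of related genes, and only uniquely aligned reads were used. How well such reads map there was not tested, so its peaks are uncertain.

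Retention went with peak strength, the mean of the 2 WT log2 levels. Members kept 11.7% (9.28 to 14.6) of peaks in the weakest quartile of all WT peaks, 29.9% (26.4 to 33.7) in the second, 58.1% (54.3 to 61.7) in the third and 92.7% (90.5 to 94.4) in the strongest. Over all WT peaks the shares were 13.9%, 33.1%, 60.7% and 90.3%. The single strongest peak of a gene was kept in 235 of 246 members (95.5%, 92.2 to 97.5). Among the 243 genes with both kinds, the kept peaks had the higher median strength in 239. Across genes, the share kept had a Spearman's rho of 0.58 with median strength, a description over genes from 1 pooled peak set per genotype.

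**Figure D3:**
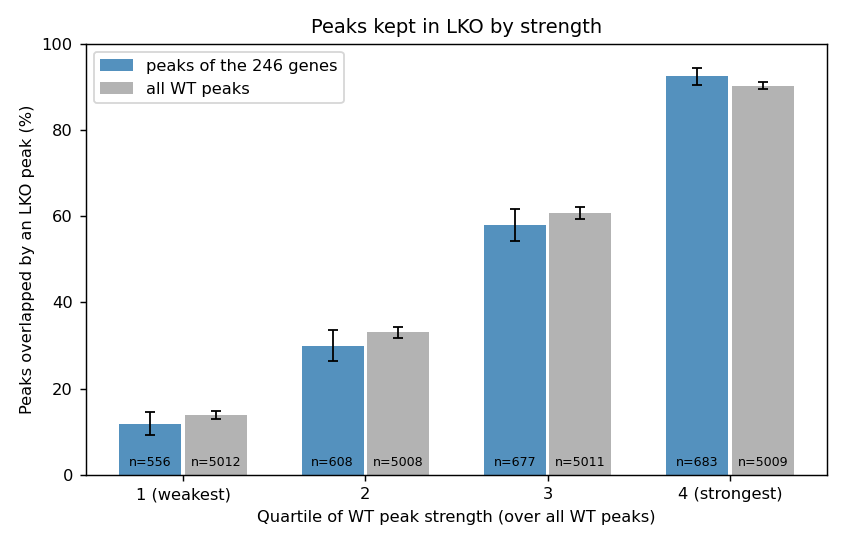
Share of WT peaks overlapped by an LKO peak (%) in each quartile of WT peak strength, for peaks of the 246 genes and for all WT peaks, with 95% Wilson intervals as bars and the number of peaks at the base. The share climbed from 11.7% to 92.7% in the members and from 13.9% to 90.3% in all WT peaks.

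Kept shares also differed with the company of a peak. Member peaks with no other member peak of the same gene within 12.5 kb were kept at 44.3% (40.3 to 48.4), those in runs of 2 to 4 at 50.2% (47.4 to 53.1) and those in runs of 5 or more at 55.6% (52.0 to 59.1). Median strength was 4.39, 4.74 and 4.87 in the same order, and the part of strength in this order was not tested. Peaks within the assigned gene were kept at 52.1% (49.3 to 54.8), intergenic ones at 49.6% (46.6 to 52.6) and those in another gene at 44.7% (38.0 to 51.7), with overlapping intervals.

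The extreme genes showed the same order of strength. Gramd3 had weak peaks throughout, its strongest at log2 levels of 4.30 and 4.89 in the WT libraries and -0.42 in WT input. The Suclg2 peak nearest to its start, at 2207 bp, had 7.46 and 8.01 in WT, 2.35 in WT input, 7.41 and 7.10 in LKO and 1.79 in LKO input. But strength did not decide every case. Suclg2 also kept a peak with WT levels of 2.97 and 3.77, among the weakest of any member shown here.

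The 11 members whose strongest peak was lost included Ppara, the nuclear receptor of fatty acid oxidation, and Ghr, the growth hormone receptor. The Ppara peak lay at its promoter, at -135 bp, with log2 levels of 6.36 and 6.90 in WT and 3.19 in WT input, the highest input of those 11 peaks. The strongest Ghr peak was intergenic at 5.12 and 5.56, with an input of 1.80. Both WT ChIP libraries were above input at each of the 11.

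The number of LKO peaks assigned to each member gave a second view. Of 246 members, 233 had fewer peaks in LKO than in WT, 8 had the same number and 5 had more; the LKO table held 12495 peaks in all against 20040. Rreb1 had 12 LKO peaks, Nfia 9, Nectin1 12, Rbm47 9 and 2010106C02Rik 5. The 5 with more were Cdh26 (11 against 9), Bcl2l11 (10 against 8), Suclg2, Eepd1 and Esr1 (9 against 8 each). Cdh26 encodes a cadherin, Bcl2l11 the pro-apoptotic protein BIM and Esr1 the estrogen receptor. Selection on a high WT count alone favours lower counts in any other table, so this difference in number was not read further.

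**Figure D4:**
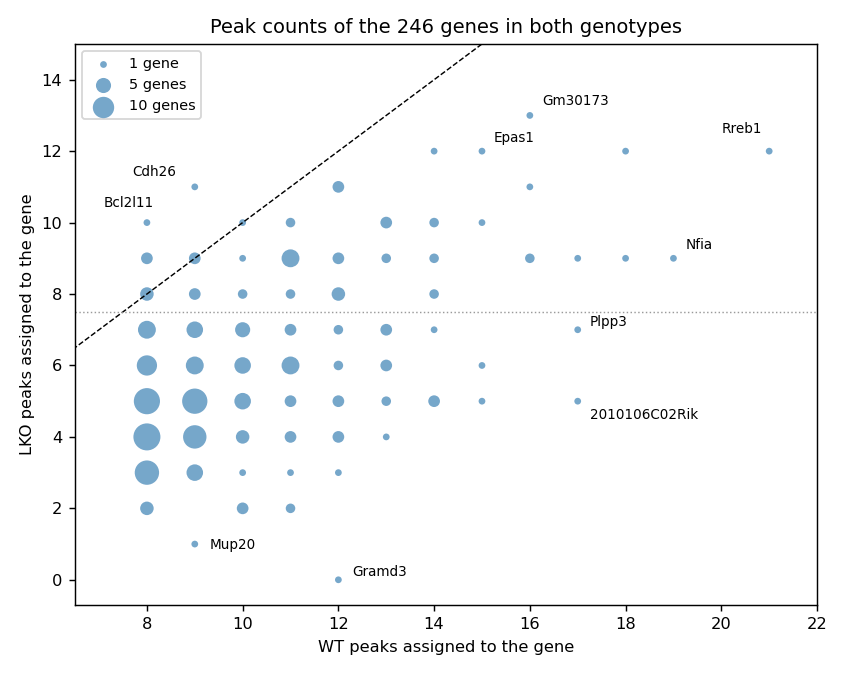
Number of LKO peaks against number of WT peaks for the 246 genes, with point area giving the number of genes at that position, the dashed line marking equal counts and the dotted line the threshold of 8 in LKO. Most points lie under the dashed line, with 233 genes below it, 8 on it and 5 above.

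Applied to LKO, the same threshold selected 71 genes, of which 63 were members. The remaining 8 were A330074K22Rik, Cdh15, Mir7226, Rasgef1b, Snx10, Trib1 and Wwox, each with 7 WT peaks, and Elmo1 with 4. Of the 1473 LKO peaks assigned to members, 202 (13.7%) overlapped no WT peak, against 20.6% of all LKO peaks. Selection on a high WT count also favours overlap with a WT peak, so this difference was not read further.

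Levels at the kept peaks were set relative to each library's median over the 9918 peaks that both genotypes shared. The median LKO minus WT difference was -0.05 log2 at the 1273 kept member peaks and 0.03 at all shared peaks. Both LKO libraries were above both WT libraries at 307 member peaks (24.1%, against 29.8% of all shared peaks) and below them at 394 (31.0%, against 25.2%). These shares were 26.9% and 27.6% in genes with 4 to 7 peaks, and 37.6% and 19.2% in genes with 1. Over all shared peaks, the median difference was 0.93 in the weakest quartile of WT strength and -0.13 in the strongest. The part of strength in the members' shares was not tested. Without centring, the shares were 9.90% and 42.4% in members and 12.9% and 37.3% in all shared peaks, where the median difference of all shared peaks was itself -0.30. Centred on all peaks of each table, they were 6.68% and 65.1% in members and 9.43% and 58.3% in all shared peaks, whose median difference was then -0.45. The distance between the medians of members and of all shared peaks is the same under each centring by construction. With 2 libraries against 2, an exact permutation test could not reach 0.05, so none was run.

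On the scale centred on shared peaks, the gene medians of these differences were above 0 in 102 members and below 0 in 143. Prkca, which encodes protein kinase C alpha, kept 6 of 10 peaks, and at all 6 both LKO libraries were above both WT libraries on the centred scale, but at 3 of 6 without centring and 2 of 6 centred on all peaks of each table. Its kept peak at 145024 bp from the start had relative levels of -0.22 and 0.28 in WT and 0.78 and 1.43 in LKO. Smarca2, a SWI/SNF ATPase gene, kept 3 of 8, and at all 3 both LKO libraries were below both WT libraries under each centring. Its strongest peak, in intron 5 of 32, went from relative levels of 2.25 and 2.04 in WT to 0.21 and 0.29 in LKO, and its WT input was 2.34. Prkca and Smarca2 were chosen after their values were seen.

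At the 15 genes with the most peaks, the strongest peak stood well above input in all 4 ChIP libraries. Umps had the highest, at log2 levels of 7.78 and 8.36 in WT and 8.17 and 8.12 in LKO, with inputs of 0.09 and 0.48. Ptpn1 had 6.99 and 7.54 in WT and 7.42 and 7.42 in LKO. Nectin1, a cell adhesion gene, had 5.63 and 6.46 in WT and 5.06 and 4.60 in LKO, and was the only 1 of the 15 whose LKO mean fell below the median of shared peaks, at -0.12 on the relative scale. Foxp1 had 5.59 and 5.44 in WT and 6.16 and 6.35 in LKO, so its LKO libraries did not overlap its WT libraries on the deposited scale.

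**Figure D5:**
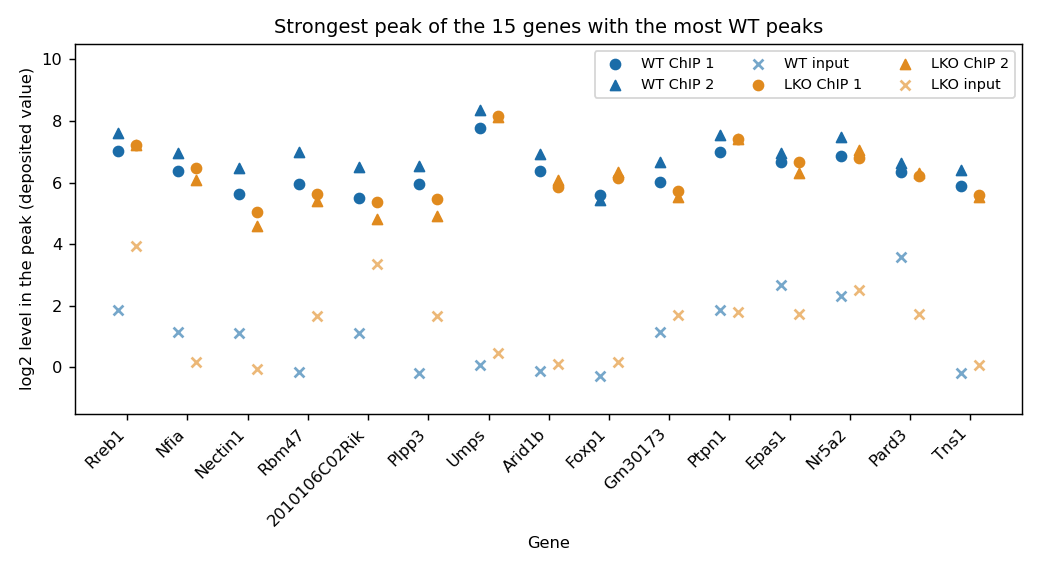
Deposited log2 level at the strongest peak of the 15 genes with the most WT peaks, with a point for each of the 6 libraries (circles and triangles, ChIP 1 and 2; crosses, input). ChIP points exceed both input points at each gene, with the smallest margin at 2010106C02Rik, where LKO ChIP 2 was 4.83 and LKO input 3.35; the genotypes were normalised separately.

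Many hepatocyte transcription factor genes were members. Of 28 listed, all with a WT peak, 12 were members (42.9%), against 2.73% of all genes with a peak. They kept 59 of 130 peaks (45.4%). Nfia and Nr5a2 (LRH-1, which drives bile acid synthesis genes) had 19 and 15 peaks and kept 9 and 5. The glucocorticoid receptor gene Nr3c1 kept 9 of 11, the clock-linked receptor gene Rora 6 of 9 and Nfib 7 of 11. Cebpa had all 8 of its peaks in 1 run of 33.5 kb (chr7:35116556-35150308), all intergenic, and kept 4. Foxa2, a pioneer factor gene, kept 4 of 9, Prox1 4 of 10 and Nr2f2 6 of 12. The list had been drawn up with earlier results of these data known, and is described without a test.

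Of 23 genes of bile acid handling and FXR feedback, all with a WT peak, Nr5a2 and Rxra, the FXR partner, were members (8.70%, against 2.73% of all genes with a peak). Together they kept 10 of 25 peaks. The median of the list was 4 peaks per gene. The strongest Nr5a2 peak, at -60218 bp from the start, had log2 levels of 6.86 and 7.47 in WT, 2.33 in WT input, 6.78 and 7.06 in LKO and 2.52 in LKO input. The Nr5a2 promoter peak, at 4.34 and 4.37, was lost. Rxra had 10 peaks over 166 kb and kept 5.

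Of the listed corepressor genes, Bcor was a member. Bcor kept 5 of 10 peaks, which spanned 505 kb of chromosome X.

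Metabolic genes were members in smaller shares than the listed hepatocyte transcription factor genes (42.9%). Of 36 lipid and lipoprotein genes with a peak, 6 were members (16.7%, against 2.73% of all genes with a peak). They kept 28 of 62 peaks. Scarb1 kept 9 of 13, with its strongest peak in intron 1 at log2 levels of 7.91 and 8.84 in WT and 8.34 and 8.35 in LKO. Apoa1 kept 5 of 13, Acsl1 3 of 11, Abca1 4 of 9 and Elovl5 3 of 8. Abca1 encodes the cholesterol exporter, Acsl1 an acyl-CoA synthetase and Elovl5 a fatty acid elongase.

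Of 20 glucose and insulin signalling genes, all with a WT peak, 5 were members (25%, against 2.73% of all genes with a peak). They kept 35 of 58 peaks (60.3%, against 50.4% of all member peaks). G6pc had its 8 peaks in 1 run of 27.6 kb (chr11:101351165-101378976), and the single lost peak lay at its 3′ end with log2 levels of 5.09 and 6.04 in WT. At the G6pc promoter peak, at -54 bp, the levels were 5.11 and 5.86 in WT and 4.71 and 4.13 in LKO. Ppp1r3b, a glycogen targeting subunit gene, kept 10 of 14, and Foxo3 8 of 14. Pik3r1, the regulatory subunit of PI3 kinase, kept 6 of 13 and the glucose transporter gene Slc2a2 4 of 9.

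The growth hormone and growth factor receptor list had 4 members of 21 genes with a peak (19.0%, against 2.73% of all genes with a peak). These kept 12 of 39 peaks (30.8%), against 50.4% of all member peaks. Median strength was 4.43 in Ghr, 4.01 in Igf1, 4.79 in Prlr and 4.29 in Egfr, against 4.71 over all member peaks. The part of strength in this share was not tested. Ghr kept 2 of 10, Igf1 3 of 10, Prlr 4 of 10 and Egfr 3 of 9. The lost Ghr peaks had a median strength of 4.02 and the kept ones 5.09, so the kept peaks were again the stronger. Of 17 circadian clock genes with a peak, Rora was a member (5.88%, against 2.73% of all genes with a peak). No gene of 35 that encode plasma proteins was one, with a highest count of 7, a share close to the 2.73% of all genes with a peak at a list of this size. These lists differ in size and in gene length, so their shares were not compared by test.

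IR1 was no more frequent in the members. Within 100 bp of the peak centre, on either strand, an IR1 with at most 2 mismatches was found in 250 member peaks (9.90%, 8.80 to 11.1), against 11.8% of all WT peaks. Exact matches numbered 7, those with 1 mismatch 49 and those with 2 mismatches 194. At least 1 match was present in 151 genes and at least 3 in 22. Gm30173 had the most, 6 among 16 peaks, and Cdh2, a cadherin gene named after its values were seen, had 5 among 12.

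Member peaks with IR1 were kept at 77.2% (71.6 to 82.0) and those without at 47.5% (45.5 to 49.5), against 69.4% and 46.8% over all WT peaks. They were also stronger, with a median strength of 5.38 against 4.65, and the part that strength had in this difference was not tested. The strongest quartile held IR1 in 18.3% of member peaks and the weakest in 7.37%. Other letters searched on both strands were about as frequent as in all WT peaks. The direct repeat DR1 with at most 2 mismatches was in 13.2% against 12.8%, the forkhead word TGTTTAC in 7.69% against 6.71%, the C/EBP word TTGCNNAA in 17.6% against 16.5% and the hexamer AGGTCA in 40.2% against 40.3%. DR1 and IR1 both contain the hexamer, so these counts overlap.

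Input did not mark the members. Of their peaks, 100 (3.96%, 3.27 to 4.80) exceeded the 95th percentile of WT input over all WT peaks, which 5% of all WT peaks exceed, and 165 genes had no such peak. Nectin1 had 3 of these among its 18 peaks, the only member with as many. Of the 92 member promoter peaks, 17 exceeded it (18.5%, 11.9 to 27.6), and the 12.9% of all promoter peaks lies inside this interval. The libraries held 2883717 to 22637613 tags, and WT ChIP 2 was the shallowest, while the other 3 ChIP libraries had 19022618 or more. At that depth, a median member peak held an estimated 44.3 tags in WT ChIP 1 and 9.70 in WT ChIP 2. All 8 hepatocyte marker genes had a WT peak, and none of 6 Kupffer cell markers did. Sinusoidal endothelial, stellate and cholangiocyte markers had a peak in 3 of 5, 2 of 5 and 2 of 5 genes, and none of these was a member.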

How the data were processed

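Per the labels and the study's methods, the authors crosslinked livers with DSG and formaldehyde, immunoprecipitated FXR, sequenced 100 base single-end reads, aligned them uniquely to mm10 with Bowtie 1.2 and called peaks with HOMER 4.10 on the pooled ChIP libraries of each genotype against its input. The deposited peak tables hold, for each library, log2 levels per peak, normalised by the authors within each table. The headers name no transform, and the levels were taken to be regularised log2 values. The table columns of fold changes and p-values from the authors' own comparison with input were not used.

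Genes were counted by the assigned gene name, members were those with 8 or more WT rows, and peaks were matched by overlap of 1 bp or more. The members and gene lists were chosen with earlier results of these data known. Named genes were those with the most peaks (15), the shortest (5) and longest (3) median gaps, the highest and lowest share kept (5 each), more LKO than WT peaks, or membership in a list. Starts, sequences and host genes came from RefSeq GRCm38.p6, whose nearest start gave the authors' gene at 94.8% of WT peaks. No sequence of chromosome 18 is shown, and some members are not reported here. Tag numbers were estimated from the log2 levels and library totals. Python 3.11.15, pandas 2.3.3 and scipy 1.17.1 were used, and overlap and motif code was tested on simulated data. Alternatives to threshold, overlap, strength, input, motif and centring were tried.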

Additional observations from a re-analysis of the deposited data

How the results depend on the processing

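Of 48 alternatives, 30 left the value within its limit and 18 moved it. With thresholds of 6, 10 and 12 WT peaks, 571, 121 and 62 genes were members, and 172, 18 and 5 of them reached the same threshold in LKO. Counting only the kept WT peaks, 34 members still had 8. Alternatives added after seeing the data left 27 genes when only peaks with 10 or more estimated tags in both WT replicates were counted, a limit set by the shallow WT replicate 2 (245 when replicate 1 alone was asked for), and 27 when the 8 peaks had to form a single run. The share of member peaks kept was 47.7% at a threshold of 12, 53.2% with an LKO peak within 500 bp, 75.4% for peaks at or above the median strength and 76.5% with 10 estimated tags in both replicates. IR1 was found in 13.01% of peaks at or above the median strength and in 2.22% with at most 1 mismatch. The median LKO minus WT level was -0.38 on the deposited scale, -0.53 centred on all peaks of each table and -0.014 as a mean, so its size depended on the centring. Leaving out 1 ChIP library gave -0.07 to -0.04. Gaps and the input share stayed within their limits in each alternative tried. No paired analysis was possible because the results come from no test: the share kept and the peak counts rest on 1 pooled peak set per genotype, and the levels of single libraries, normalised separately in each table, are described without a fit.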
